A study of Mus musculus with 6 samples.

Results

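The genes examined here encode the nuclear part of the mitochondrial respiratory chain. They were chosen by name, as the protein-coding mouse genes whose symbols start with Nduf, Sdha, Sdhb, Sdhc, Sdhd, Uqcr, Cox followed by a digit, or Atp5. The deposited counts held 106 such genes among 47729, and 101 of them passed the filter on low counts that left 17406 genes for testing. By complex, 44 belonged to complex I, 8 to complex II, 8 to complex III, 29 to complex IV and 17 to complex V, the ATP synthase. Of the 106 genes, 85 encode structural subunits or their paralogs and 21 encode assembly factors, proteins that help build a complex but are not part of it.

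RNA-seq was run on immortalized bone marrow-derived macrophages (BMMs) from C57BL/6J mice, with 3 WT libraries and 3 Aif1-/- libraries. Macrophages grown from the marrow of 8-week-old mice had been immortalized with SV40 T antigen, carried in CSF-1 at 120 ng/ml and used at passages 3 to 5, and no other treatment was named. All 6 libraries therefore share the viral antigen and the growth factor, and the knockout cells came from mice without AIF1 in any tissue, a calcium-binding protein of the myeloid lineage. By the study's legend the cells of each genotype came from independent male animals. The labels do not tie a library to an animal or cell line, so p-values are read here as the spread between these libraries.

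The targeted gene matched the labels, with 220, 157 and 239 Aif1 reads in the WT libraries and 4, 4 and 1 in the Aif1-/- libraries. Gene totals ran from 17707986 to 29314253 reads per library. Granulocyte, fibroblast and lymphocyte markers were near 0, at no more than 1.1 CPM (reads of a gene scaled to a common library total) per list and library. The 8 macrophage markers were present in every library, at a summed 3512 to 4248 CPM in WT and 5086 to 5170 CPM in Aif1-/- cells, with 6 higher and 1 lower in Aif1-/- cells by edgeR's quasi-likelihood test. The 5 platelet markers summed to 39.7 to 44.6 CPM in WT and 85.2 to 89.1 CPM in Aif1-/- cells. Most of this was Pf4 alone, with 813 to 974 normalized counts in WT and 1709 to 1799 in Aif1-/- cells. Of the 4 platelet markers tested, 3 were higher in Aif1-/- cells. Over all genes tested 8.04% were higher and 10.5% lower. Itga2b did not pass and had a negative log2 fold change (Aif1-/- minus WT) of -0.49 ± 0.52 (SE). Gp9 had 0 to 2 reads per library and was not tested. The part of these marker differences in the results below was not tested, and in bulk RNA fewer cells of a type and less RNA per cell cannot be told apart.

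The respiratory chain passes electrons from NADH and succinate to oxygen through complexes in the inner mitochondrial membrane. The energy is used to pump protons across that membrane, and the protons then drive ATP synthesis. Complex I oxidizes NADH, complex II oxidizes succinate, complex III passes electrons from ubiquinol to cytochrome c, complex IV reduces oxygen, and complex V makes ATP. A small core of subunits is made from mitochondrial DNA, and all remaining subunits are made from nuclear genes and imported. In macrophages the chain is known for its part in activation, since inflammatory stimuli can turn its use from ATP synthesis toward succinate oxidation and the release of reactive oxygen.

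Transcription of these genes is classically tied to the factors NRF1, GABP (an ETS-family factor) and YY1, so their promoters are shown first. RefSeq promoter windows (GRCm38.p6, 250 bases before to 50 bases after the start) were found for 85 of the 106 genes. Both strands were searched, and no motif counted here holds another. The letters of NRF1, GCGCANGCGC, were in the promoters of 21 of the 85 genes (24.7%), against 7.17% of 17492 protein-coding genes in the same table. Those of ETS, CCGGAAG, were in 26 (30.6%, against 12.9%). Those of YY1, AAGATGGC, were in 12 (14.1%, against 3.57%). The TATA box, TATAAA, was in 9 (10.6%, against 14.8%). At least 1 of the first 3 motifs was present for 49 of the 85 genes (57.6%, against 21.03%). By complex these were 21 of 39 for complex I, 7 of 7 for complex II, 3 of 5 for complex III, 8 of 21 for complex IV and 10 of 13 for complex V. A match of letters is a description and does not show binding.

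The next 3 windows are examples of genes with a pair of these motifs. Each runs 5′ to 3′ from 120 bases before the RefSeq start through the first 30 transcribed bases, with motif letters in capitals. Sdhd, a membrane anchor of complex II, holds NRF1 letters that begin 79 bases and ETS letters that begin 46 bases upstream of the start. Cox6a1, the ubiquitous subunit 6a of complex IV, holds NRF1 letters from 117 bases and ETS letters from 16 bases upstream. Cox10, which makes heme O for complex IV, holds the letters of a TATA box on the other strand (TTTATA) from 69 bases upstream. It also holds ETS letters from 27 bases upstream and YY1 letters from 21 bases downstream.
Sdhd, chr9:50603820-50603969, - strand: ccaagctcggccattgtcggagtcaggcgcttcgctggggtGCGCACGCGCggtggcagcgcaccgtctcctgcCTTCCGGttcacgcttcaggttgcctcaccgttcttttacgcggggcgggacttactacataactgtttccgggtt
Cox6a1, chr5:115348929-115349078, - strand: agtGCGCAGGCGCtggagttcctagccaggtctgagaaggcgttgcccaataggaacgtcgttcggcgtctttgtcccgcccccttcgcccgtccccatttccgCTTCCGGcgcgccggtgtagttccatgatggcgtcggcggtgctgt
Cox10, chr11:64079443-64079592, - strand: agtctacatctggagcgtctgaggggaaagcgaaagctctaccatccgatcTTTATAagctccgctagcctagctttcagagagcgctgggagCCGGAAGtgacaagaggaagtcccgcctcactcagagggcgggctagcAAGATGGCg

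Levels can be compared between genes only per length, so TPM values (counts per merged exon length, scaled to a common total) were computed. Over the 101 tested genes, WT levels ran from 0.902 to 324 TPM with a median of 45.4 TPM. The highest was Cox4i1, the ubiquitous subunit 4 of complex IV, at 324 ± 9.87 TPM (SD, n = 3 WT libraries) and 344 ± 1.52 TPM in Aif1-/- cells (SD, n = 3). Next was Cox8a, subunit 8 of complex IV, at 302 ± 32.8 TPM in WT cells (SD, n = 3), and its range of 269 to 335 TPM overlapped that of Cox4i1 at 318 to 336 TPM. Atp5a1 and Atp5b, the alpha and catalytic beta subunits of ATP synthase, followed at 273 ± 9.52 and 253 ± 10.8 TPM (SD, n = 3), with Cox6a1 between them at 263 ± 22.7 TPM.

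In complex I the highest was the accessory subunit Ndufa2 at 235 ± 54.7 TPM, with Ndufb9 next at 138 ± 14.5 TPM, and the lowest subunit was Ndufb2 at 6.99 ± 0.408 TPM (SD, n = 3 WT libraries each). Sdhd led complex II at 186 ± 11.7 TPM, and Uqcr10, an accessory subunit, led complex III at 194 ± 28.6 TPM (SD, n = 3). The lowest subunit proper of ATP synthase was Atp5l, subunit g, at 8.30 ± 0.416 TPM (SD, n = 3), and 12 other genes that share near-identical stretches with Atp5l can take or give reads. Both lowest places rest on long merged exons, 5628 bases for Ndufb2 and 6443 for Atp5l, which lower the TPM. By reads Ndufb2 was not lowest, with 367 to 481 in the WT libraries against 191 to 259 for Ndufb4 over 1916 bases. Assembly factors had a lower median than the subunits they serve, at 11.6 TPM against 46.5 TPM in complex I, 7.60 against 98.2 TPM in complex II and 9.67 against 46.5 TPM in complex IV. These are medians of WT means over the tested genes. Single factors could lie above subunits, as Cox14 did in complex IV at 68.5 TPM against 52.8 TPM for Cox7c.

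**Figure D1:**
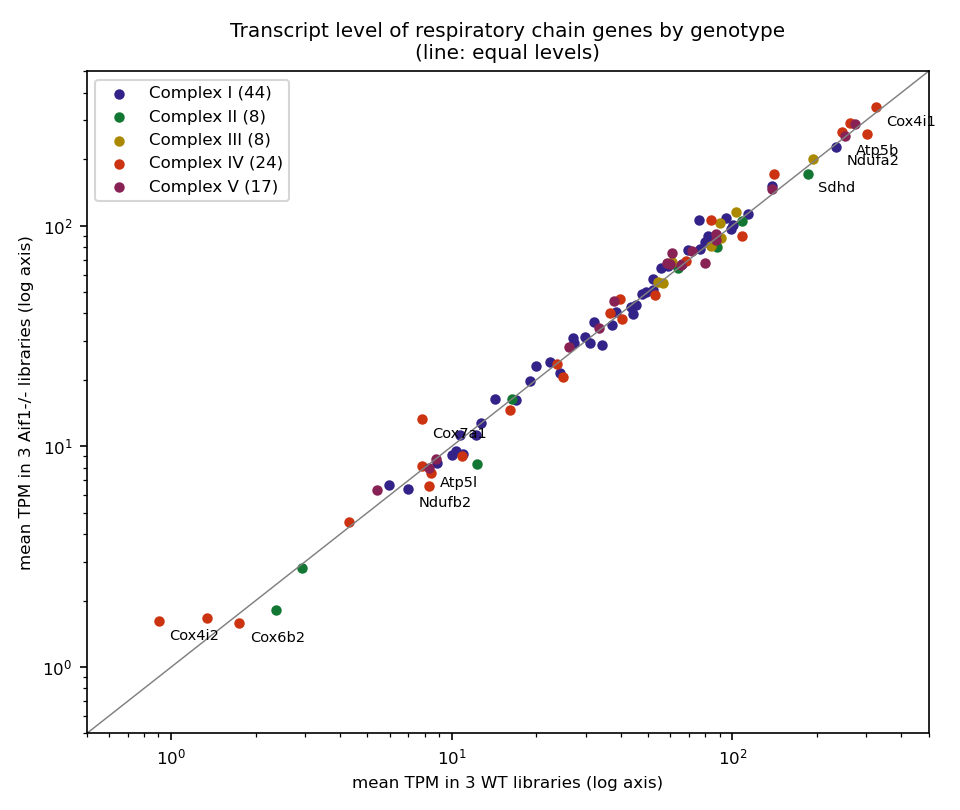
Mean TPM of the 101 tested genes in 3 WT libraries (horizontal, log axis) and 3 Aif1-/- libraries (vertical, log axis), coloured by complex, with the line of equal levels. The points lie along the line from Cox4i2 at 0.902 TPM to Cox4i1 at 324 TPM in WT cells.

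Several complex IV subunits exist as a ubiquitous gene and a tissue gene, and these BMMs used the ubiquitous one in both genotypes. Cox4i1 made up 99.2% to 99.8% of the summed subunit 4 TPM across the 6 libraries, with the lung and hypoxia gene Cox4i2 as the rest. Cox6a1 made up 96.8% to 98.1% of subunit 6a, Cox6b1 99.0% to 99.6% of subunit 6b and Cox8a 98.5% to 99.8% of subunit 8. The testis genes Cox7b2 and Cox8c had 0 reads in every library. Ndufa4, named for complex I but found in complex IV, made up 97.8% to 99.5% beside its hypoxia-induced paralog Ndufa4l2. The rotor ring of ATP synthase is built from a single protein, subunit c, that 3 genes encode. Atp5g3 made up 71.4 ± 0.520% of their summed TPM in WT and 71.4 ± 1.13% in Aif1-/- cells (SD, n = 3 each), Atp5g2 21.4 ± 0.819% and 21.8 ± 0.129%, and Atp5g1 7.17 ± 1.05% and 6.81 ± 1.00%. The gap between Atp5g1 and Atp5g2 rests on merged exon lengths of 4912 and 1675 bases, since their WT reads summed to 1448 and 1435. Near-identical stretches in 4 other genes for Atp5g1 and 2 for Atp5g2 can also take or give reads.

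Genotype was then compared gene by gene. Only 5 of the 101 genes passed the threshold of an adjusted p of 0.05 in edgeR's quasi-likelihood test, against 18.6% of all genes tested. The 3 that rose in Aif1-/- cells (8.04% of all genes tested rose) were Ndufa1, Cox7b and Cox7a2, all small structural subunits. The 2 that fell (10.5% of all genes tested fell) were Sdhaf2 and Cox15, both assembly factors. The other 96 did not pass, although 13 genes in all had an unadjusted p below the same value. Among the 75 genes whose mean log2 CPM was 4 or more, 2 rose and 2 fell, against 23.2% of all 8532 tested genes at that level.

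Over the 101 genes, passed or not, the differences were mostly small. The log2 fold change (Aif1-/- minus WT) ran from -0.55 for Sdhaf2, which passed, to 0.79 for Cox7a1, which did not, and Cox4i2 had an equal 0.79 with a wide 95% interval of -0.51 to 2.10. It was positive for 58 genes and negative for 43, and had a median of 0.03 beside 0.00 over all genes tested. Its size was below 0.3 for 93 of the 101 genes (92.1%), against 65.1% of all genes tested, and the 95% interval lay within 0.5 of 0 on the log2 scale for 77 genes (76.2%, against 43.8%). At a mean log2 CPM of 4 or more these shares were 97.3% against 77.8% and 85.3% against 74.6%. The interval lay within 1 of 0 for 98 genes. Normalized counts of the genotypes did not overlap for 17 genes, 12 of them higher and 5 lower in Aif1-/- cells. That is 17 of 101, where 35.7% of all genes tested did not overlap.

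**Figure D2:**
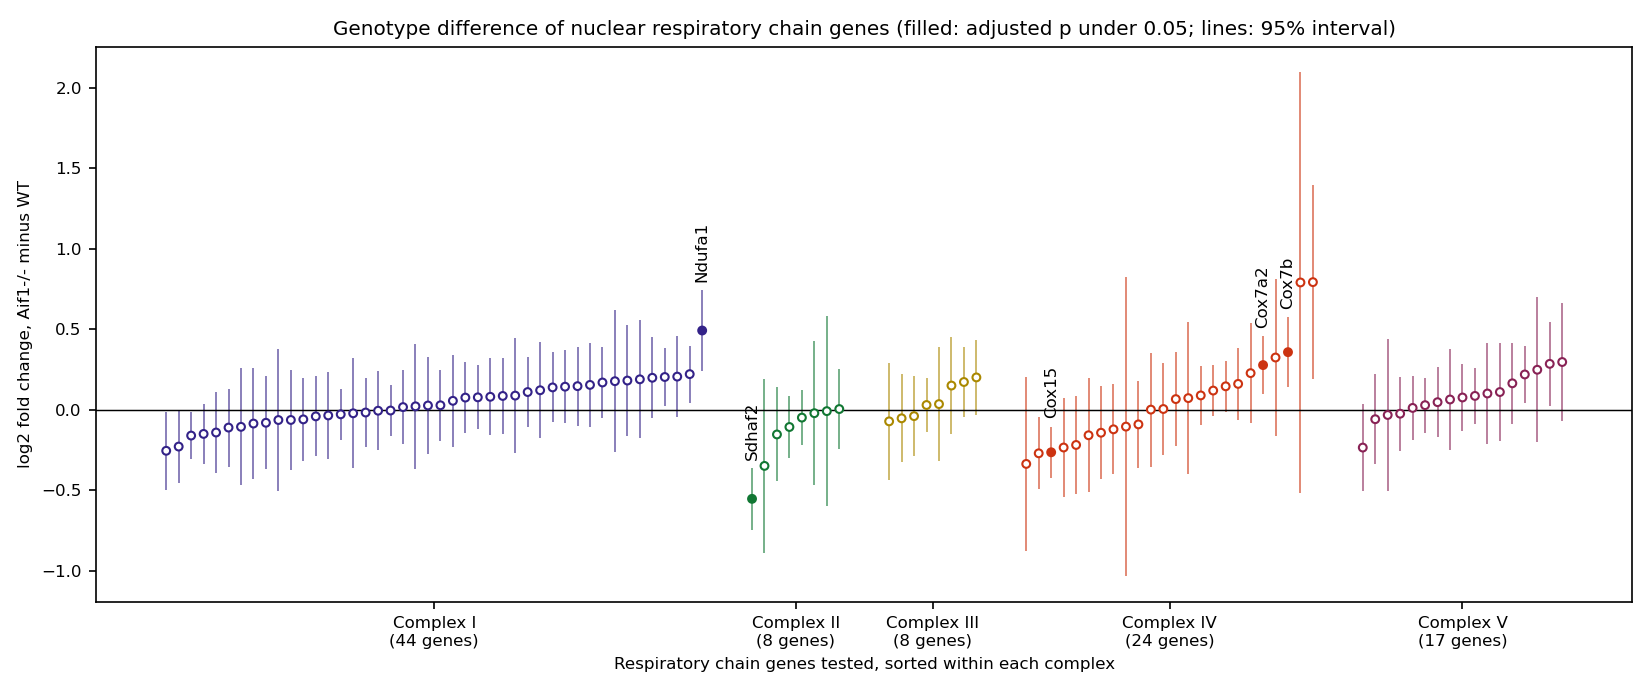
Log2 fold change (Aif1-/- minus WT, vertical) of each tested gene with its 95% interval, sorted within complexes I to V (horizontal), where filled points passed an adjusted p of 0.05. Most points lie within 0.3 of 0, and the 5 filled points are Ndufa1, Sdhaf2, Cox15, Cox7a2 and Cox7b.

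Complex I takes electrons from NADH through a core of conserved subunits surrounded by accessory ones, and 1 of its 44 genes passed. Ndufa1, a small accessory subunit of the membrane arm encoded on the X chromosome (37187588 to 37191163, GRCm38), had normalized counts of 329, 300.4 and 296 in WT and 467, 385 and 446 in Aif1-/- cells. Every Aif1-/- library was above every WT library. The log2 fold change was 0.49 ± 0.11 (SE, n = 3 against 3, edgeR's quasi-likelihood adjusted p = 0.0121). Ndufv2 and Ndufv3, an iron-sulfur protein and an accessory protein of the NADH-oxidizing module, came next. Ndufv2 had counts of 1253, 1064 and 1150.1 in WT and 1389, 1318 and 1333 in Aif1-/- cells, a log2 fold change of 0.22 ± 0.08 (edgeR adjusted p = 0.0856). Ndufv3 had counts of 810.4, 801 and 903 in WT and 979, 954 and 965 in Aif1-/- cells, a log2 fold change of 0.20 ± 0.08 (edgeR adjusted p = 0.115). Neither gene overlapped between genotypes, and neither passed.

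The 7 core subunits of complex I had log2 fold changes of -0.25 to 0.22 and none passed by edgeR or DESeq2, with 3 at an unadjusted p below 0.05, while 1 of 29 accessory subunits passed. Ndufb8, an accessory subunit of the membrane arm, had a log2 fold change of 0.20 with a 95% interval of -0.05 to 0.45, and its WT counts of 814 to 1126 overlapped the Aif1-/- counts of 1064 to 1165. None of the 8 complex I assembly factors passed by edgeR or DESeq2, or at an unadjusted p below 0.05. The ones with the smallest adjusted p were Ndufaf7, which methylates a core subunit, at -0.23 ± 0.10 (SE, edgeR adjusted p = 0.174), and Ndufaf4 at -0.14 ± 0.11 (edgeR adjusted p = 0.479).

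Complex II, succinate dehydrogenase, also serves the tricarboxylic acid cycle, and 1 of its 8 genes passed. Sdhaf2, which helps attach the flavin cofactor to Sdha, lies on chromosome 19 (10500534 to 10526142, GRCm38). It had normalized counts of 872, 833 and 856 in WT and 623, 582 and 539 in Aif1-/- cells. Every Aif1-/- library was below every WT library. The log2 fold change was -0.55 ± 0.09 (SE, n = 3 against 3, edgeR's quasi-likelihood adjusted p = 0.0012), and Sdhaf2 passed in 13 of 14 other settings. Its merged exons overlap exons of Cpsf7 on the opposite strand, whose own log2 fold change was -0.16 ± 0.09 (edgeR adjusted p = 0.275), and 19 other genes carry near-identical stretches. The kit named by the labels keeps strand and HTSeq's default setting counts by strand, but the sources used here do not say that the kit and the setting match. Whether reads of Sdhaf2 and Cpsf7 were kept apart is therefore not known, the value is uncertain, and the same holds for the 36 genes of the 106 whose exons lie opposite another gene's exons.

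None of the 4 structural subunits of complex II passed by edgeR or DESeq2, or at an unadjusted p below 0.05. Sdha, the flavoprotein that oxidizes succinate, had normalized counts of 4343, 3946 and 4740 in WT and 4251, 4234 and 4116 in Aif1-/- cells, a log2 fold change of -0.05 with a 95% interval of -0.22 to 0.12. The iron-sulfur subunit Sdhb had 1918, 1526 and 2350 in WT and 1686, 1777 and 1751 in Aif1-/- cells, a log2 fold change of -0.15 with an interval of -0.44 to 0.14. For both genes all 3 Aif1-/- counts fell inside the WT range, with WT 2 lowest and WT 3 highest. Sdhd had a log2 fold change of -0.11 with an interval of -0.30 to 0.09. The assembly factor Sdhaf1 had a log2 fold change of -0.35 with an interval of -0.89 to 0.19, on 38.2 to 67.4 normalized counts per library.

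Complex III carries electrons from ubiquinol to cytochrome c, and none of its 8 genes passed, by edgeR's quasi-likelihood test, at an unadjusted p below 0.05, or by DESeq2, where 15.9% of all genes passed. Its log2 fold changes ran from -0.07 to 0.20, and every 95% interval lay within 0.5 of 0. Uqcrfs1, the Rieske iron-sulfur protein, had normalized counts of 1241, 969 and 1416 in WT and 1123, 1184 and 1190.3 in Aif1-/- cells, a log2 fold change of -0.05 with an interval of -0.32 to 0.22. Core protein 2, Uqcrc2, had 1362, 1245 and 1437 in WT and 1379, 1420 and 1331 in Aif1-/- cells, a log2 fold change of 0.03 with an interval of -0.14 to 0.20. The Aif1-/- counts of both genes again lay inside the WT range. The smallest adjusted p was that of Uqcrb, an accessory subunit, at 0.20 ± 0.10 (SE, edgeR adjusted p = 0.239), followed by the hinge protein Uqcrh at 0.17 ± 0.10 and Uqcr11 at 0.15 ± 0.13.

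In complex IV, cytochrome c oxidase, 3 of 24 tested genes passed, 2 higher and 1 lower, where 18.6% of all genes tested passed. Cox7b, a small subunit encoded on the X chromosome (106015700 to 106022450, GRCm38), had normalized counts of 1087, 1000.3 and 839 in WT and 1296, 1205 and 1247 in Aif1-/- cells. Cox7a2, the ubiquitous subunit 7a on chromosome 9 (79755361 to 79759878, GRCm38), had 1305, 1183 and 1395 in WT and 1600.4, 1606 and 1501 in Aif1-/- cells. In both genes all Aif1-/- libraries were above all WT libraries. The log2 fold change of Cox7b was 0.36 ± 0.10 (SE, n = 3 against 3, edgeR's quasi-likelihood adjusted p = 0.0283) and that of Cox7a2 was 0.28 ± 0.08 (edgeR adjusted p = 0.0352).

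Cox15, which makes the heme A of complex IV, lies on chromosome 19 (43733254 to 43753000, GRCm38) and was the lower one. Its normalized counts were 1192, 1137 and 1232 in WT and 987, 964 and 1015 in Aif1-/- cells. The groups did not overlap, and the log2 fold change was -0.26 ± 0.07 (SE, n = 3 against 3, edgeR's quasi-likelihood adjusted p = 0.0279). Its exons overlap Entpd7 and Cutc on the opposite strand, whose own log2 fold changes were -0.19 ± 0.07 and -0.27 ± 0.15 (SE, edgeR adjusted p = 0.0697 and 0.302), so the value is uncertain. By DESeq2 the adjusted p of Cox15 was 0.0527. The copper chaperone Cox17 had a log2 fold change of -0.23 with a 95% interval of -0.54 to 0.07. Cox4i1, with 4911, 4348 and 5410.0 normalized counts in WT and 5193, 5209 and 5209 in Aif1-/- cells, had a log2 fold change of 0.09 with an interval of -0.09 to 0.27.

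**Figure D3:**
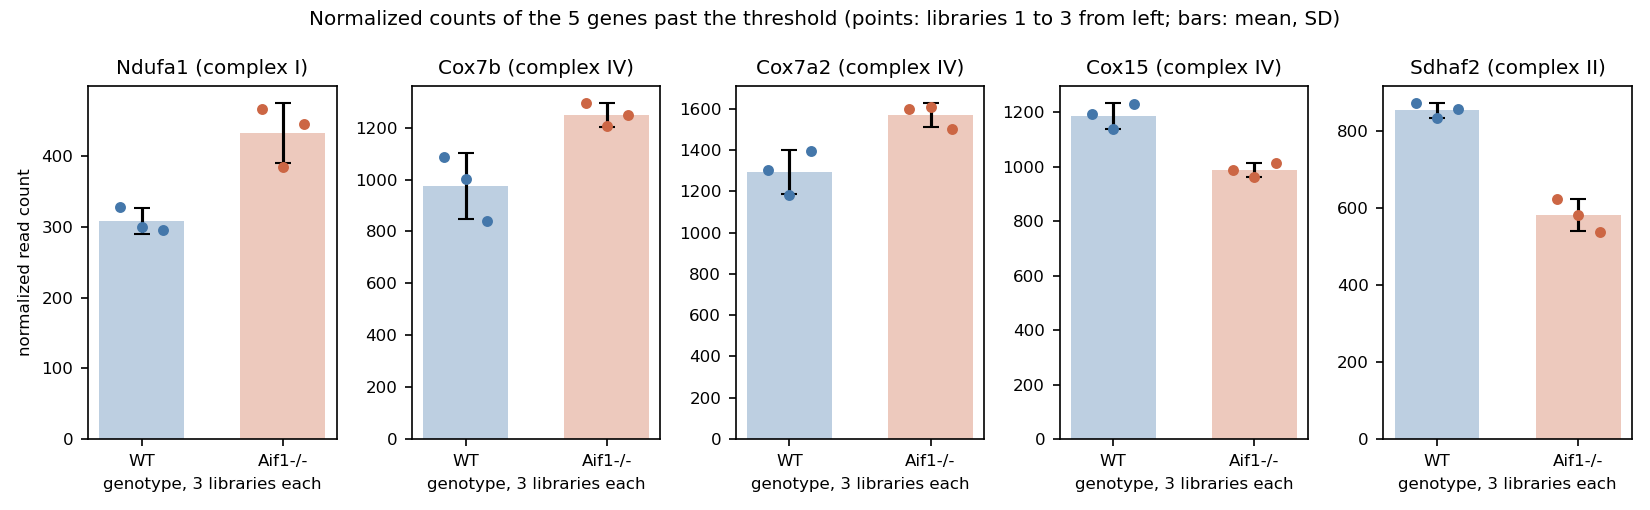
Normalized read counts (vertical, from 0) of the 5 genes that passed, with a point for each library, a bar for the mean of 3 libraries of a genotype and a line for the SD. The Aif1-/- points lie above the WT points for Ndufa1, Cox7b and Cox7a2 and below them for Cox15 and Sdhaf2.

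Among 8 families of isoforms, the shares in the subunit 7a family differed between genotypes by more than the spread between libraries. Cox7a2 is the ubiquitous subunit, Cox7a1 its heart and muscle form, and Cox7a2l a related protein tied to assemblies of complexes III and IV. Whether Cox7a2l has that role in these cells was not tested. Cox7a2 made up 54.2%, 56.2% and 54.2% of the family's summed TPM in WT and 62.5%, 61.2% and 63.3% in Aif1-/- cells. Cox7a2l made up 42.1%, 41.2% and 43.1% in WT and 31.7%, 34.3% and 32.4% in Aif1-/- cells. The genotypes did not overlap for either share. The means were 54.8 ± 1.17% against 62.3 ± 1.04% for Cox7a2, and 42.1 ± 0.945% against 32.8 ± 1.35% for Cox7a2l (SD, n = 3 each, two-sided exact permutation p = 0.1 for both, the smallest that 3 against 3 allow). Cox7a1 took the remaining 3.01 ± 0.650% and 4.86 ± 0.807%. The share of Cox6a1 in its family did not overlap either, at 96.9 ± 0.152% and 97.8 ± 0.411%. With a smallest possible p of 0.1, no share could pass an adjustment over the 8 families.

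Cox7a2l by itself had normalized counts of 1586, 1359 and 1739 in WT and 1271, 1410.4 and 1205 in Aif1-/- cells. The groups overlapped through WT 2 and Aif1-/- 2, and the log2 fold change of -0.27 ± 0.10 (SE, edgeR adjusted p = 0.0993) did not pass. Cox7a1 had 51.3, 30.5 and 39.7 in WT and 83.9, 66.6 and 57.9 in Aif1-/- cells. Its log2 fold change of 0.79 ± 0.27 was the largest in size of the 101 genes and did not pass either (edgeR adjusted p = 0.0712).

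**Figure D4:**
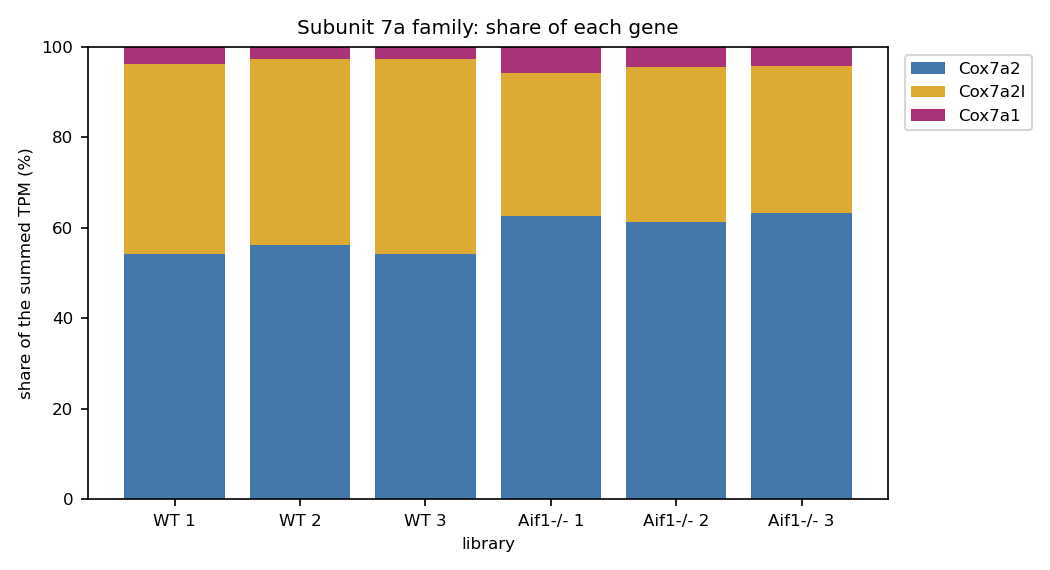
Share of Cox7a2, Cox7a2l and Cox7a1 in their summed TPM (vertical, percent) in each of the 6 libraries (horizontal). Cox7a2 makes up 54.2% to 56.2% in the WT libraries and 61.2% to 63.3% in the Aif1-/- libraries.

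ATP synthase turns the proton gradient into ATP through a catalytic head, a rotor and a stator, and none of its 17 genes passed by edgeR's quasi-likelihood test or by DESeq2, with 2 at an unadjusted p below 0.05. The log2 fold changes ran from -0.23 to 0.30 with a median of 0.08, and 13 of the 17 were positive. Atp5b, the catalytic subunit, had normalized counts of 10521, 9029 and 11715 in WT and 10563, 10484 and 10482 in Aif1-/- cells, a log2 fold change of 0.01 with a 95% interval of -0.19 to 0.21. Atp5a1 had 8247, 7259 and 9563 in WT and 8916, 8908 and 8618 in Aif1-/- cells, a log2 fold change of 0.08 with an interval of -0.13 to 0.29. The Aif1-/- counts of both genes lay inside the WT range, with WT 2 lowest and WT 3 highest.

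Closest to the threshold in ATP synthase was Atp5h, subunit d of the stator, with 886, 813 and 783 in WT and 949, 971 and 969 in Aif1-/- cells. Its groups did not overlap, and its log2 fold change was 0.22 ± 0.08 (SE, edgeR adjusted p = 0.0869). Atp5j, coupling factor 6 of the stator, had a log2 fold change of 0.29 ± 0.12 (edgeR adjusted p = 0.131), and its exons overlap those of Gabpa on the opposite strand. Atp5o, the protein that joins the stator to the head, had a log2 fold change of -0.23 ± 0.12 (edgeR adjusted p = 0.243).

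The sum over all 106 genes was 4739, 4087 and 5158 CPM in WT and 4809, 4732 and 4720 CPM in Aif1-/- cells. All 3 Aif1-/- sums lay inside the WT range, with means of 4662 ± 539.6 and 4753 ± 48.5 CPM (SD, n = 3 each), a log2 ratio of 0.03. By complex the log2 ratio of the sums was 0.04 for complex I, -0.10 for complex II, 0.02 for complex III, 0.04 for complex IV and 0.05 for complex V, each smaller than the pooled SD between libraries of 0.10, 0.13, 0.17, 0.10 and 0.13.

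The spread among the WT libraries was shared by most of the genes. In WT 2 only 17 of the 101 tested genes were above their mean over the 6 libraries, and in WT 3 73 were. The other 4 libraries had 60 to 67 above. In WT 2 none of the 17 ATP synthase genes and none of the 8 complex III genes was above its mean. The median log2 deviation of the 101 genes from that mean was 0.02, -0.18 and 0.10 in WT 1 to 3 and 0.03, 0.02 and 0.02 in Aif1-/- 1 to 3, where all genes tested had a median of 0.00 to 0.01 in each library. Reads matched to no gene, which can include introns, made up 32.4%, 40.4% and 25.5% of all counted reads for WT 1 to 3 and 33.6%, 33.6% and 35.7% in Aif1-/- 1 to 3. WT 2 thus had the lowest level of these genes and the largest share of reads outside genes, and WT 3 the reverse. The 13 mitochondrially encoded subunits went the other way, with 12857, 15465 and 10422 CPM in WT 1 to 3 and 13328, 12833 and 12698 CPM in Aif1-/- cells. The part of the reads outside genes in these levels was not tested.

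**Figure D5:**
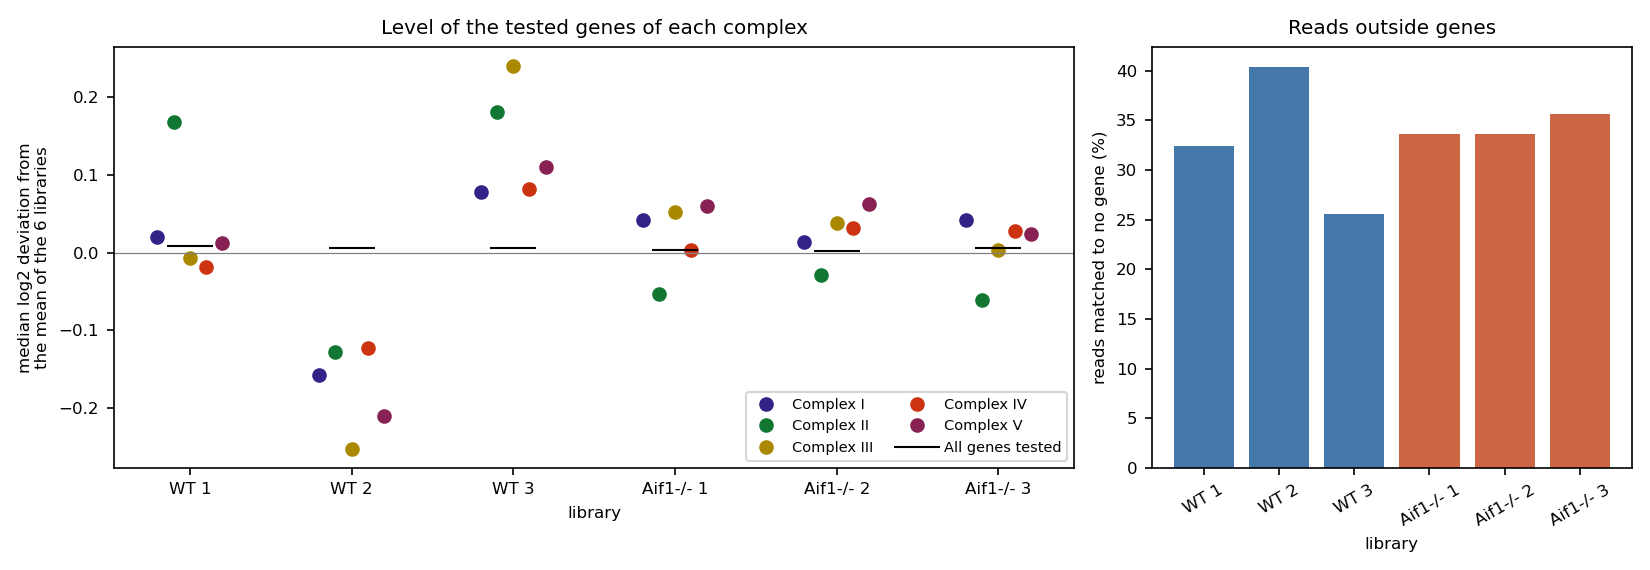
Left, the median log2 deviation of the tested genes of each complex, and of all genes tested, from the mean of the 6 libraries (vertical) in each library (horizontal). Right, the percent of counted reads matched to no gene. WT 2 has the lowest medians for all 5 complexes and the largest share at 40.4%, and WT 3 the highest medians and the smallest share at 25.5%.

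The number of calls rested on these libraries. Without WT 3, 18 genes were higher and 3 lower (13.6% and 14% of all genes tested), and without WT 2, 3 were higher and 8 lower (10.1% and 12.3%). The median log2 fold change was 0.11 without WT 3 and -0.03 without WT 2. With that share added to the model as a covariate, 22 were higher and 6 lower, when 15.4% of all genes tested were higher and 16.3% lower. Of the 18 higher without WT 3, 17 were also among these 22, among them Cox4i1, Cox5a, Atp5a1, Atp5g3, Ndufs3 and Ndufs8. Leaving out WT 3 and adding the covariate are not independent, since WT 3 had the smallest share of reads outside genes at 25.5%. Their overlap is therefore no separate evidence. All 5 genes of the main test passed in each of these 3 settings. Without Aif1-/- 1 or without Aif1-/- 3 none was higher by edgeR and 1, Sdhaf2, was lower, and without Aif1-/- 2 Ndufa1 was higher and Sdhaf2 lower. The share of all genes that passed without an Aif1-/- library was not counted. The loss of calls there cannot be read as particular to the respiratory chain genes.

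Some features that the choice by name did not use were compared. Of the 3 X-linked genes, Ndufa1 and Cox7b rose and Ndufb11, a further accessory subunit of complex I, had a log2 fold change of 0.09 with a 95% interval of -0.15 to 0.32. Of 635 X-linked genes tested, 19.7% passed in either direction and 9.76% rose. Genes with merged exons under 1000 bases had a median log2 fold change of 0.11 (23 genes, 2 of them risen), those from 1000 to under 2000 bases 0.03 (36 genes, 1 risen), and longer ones 0.01 (42 genes, 2 fallen). Over all genes whose mean log2 CPM was 4 or more the same length classes had medians of 0.07, 0.02 and -0.01. The 48 tested genes with NRF1, ETS or YY1 letters in the promoter had a median log2 fold change of 0.05 and included the 2 that fell, and the 34 without had a median of 0.01 and included the 3 that rose. Over all genes tested 8.04% rose and 10.5% fell, and these shares were not counted by length class or by promoter letters. A part of the letters in these calls was not tested.

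The promoters of the 5 genes that passed are shown over the same window as above, since the genotypes differed in their transcripts. Ndufa1, Cox7b and Cox7a2 held none of the 4 motifs in the 300 bases searched, which says only that those letters were not there. Cox15 held ETS letters that begin 7 bases downstream of the start. Sdhaf2 held ETS letters that begin 16 bases downstream, and a further copy 158 bases upstream that lies outside the window shown.
Ndufa1, chrX:37191209-37191358, - strand: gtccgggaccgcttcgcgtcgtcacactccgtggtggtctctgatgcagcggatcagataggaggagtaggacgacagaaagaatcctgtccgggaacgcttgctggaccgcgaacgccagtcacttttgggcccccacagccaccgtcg
Cox7b, chrX:106015580-106015729, + strand: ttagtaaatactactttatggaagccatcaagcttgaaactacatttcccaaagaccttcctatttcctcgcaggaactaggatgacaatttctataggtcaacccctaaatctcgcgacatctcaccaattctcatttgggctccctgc
Cox7a2, chr9:79759824-79759973, - strand: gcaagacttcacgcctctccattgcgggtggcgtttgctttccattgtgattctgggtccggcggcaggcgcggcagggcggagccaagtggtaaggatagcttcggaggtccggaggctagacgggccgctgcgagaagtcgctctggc
Cox15, chr19:43752971-43753120, - strand: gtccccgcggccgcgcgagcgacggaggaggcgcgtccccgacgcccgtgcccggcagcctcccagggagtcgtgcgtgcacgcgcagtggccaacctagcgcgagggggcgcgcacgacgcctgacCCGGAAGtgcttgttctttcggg
Sdhaf2, chr19:10525180-10525329, - strand: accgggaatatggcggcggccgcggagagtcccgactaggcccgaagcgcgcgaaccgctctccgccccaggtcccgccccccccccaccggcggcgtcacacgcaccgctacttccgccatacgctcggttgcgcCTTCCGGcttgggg

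The genes around the chain were counted from lists of related functions, where 8.04% of all genes tested rose and 10.5% fell. None of the 13 mitochondrially encoded subunits passed by edgeR or DESeq2, with 2 at an unadjusted p below 0.05 and a median log2 fold change of 0.09. Likewise none passed of 8 genes for cytochrome c, cytochrome c1 and other electron entry (1 unadjusted, median 0.08) or of 18 tricarboxylic acid cycle genes (3 unadjusted, median 0.01). Of 29 assembly factors with other names, Dmac1, which serves complex I, rose by 0.40 ± 0.11 and Surf1, which serves complex IV, fell by 0.49 ± 0.10 on the log2 scale (SE, edgeR adjusted p = 0.029 and 0.0061). Surf1 had normalized counts of 607, 594 and 667 in WT and 473, 449 and 409 in Aif1-/- cells, so that the groups did not overlap. Of 13 coenzyme Q synthesis genes, Coq2, which attaches the isoprenoid tail, rose by 0.37 ± 0.10 (edgeR adjusted p = 0.0273). Of 77 mitochondrial ribosomal proteins 2 were higher and 4 lower, with a median of -0.04. Of 13 outer membrane and import genes Hspa9, the matrix chaperone that pulls proteins in, fell by 0.35 ± 0.06 on the log2 scale (SE, edgeR adjusted p = 0.0032).

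Of 13 tested regulators of respiratory gene expression only Myc passed, where 18.6% of all genes tested passed. It rose from 871, 956 and 1049 normalized counts in WT to 1739, 1858 and 1849 in Aif1-/- cells, a log2 fold change of 0.92 ± 0.08 (SE, edgeR adjusted p = 2.7e-05). Nrf1 had a log2 fold change of 0.09 ± 0.07, Gabpa, the DNA-binding subunit of GABP, 0.23 ± 0.08 (edgeR adjusted p = 0.089), Yy1 -0.11 ± 0.08 and Tfam, the packaging factor of mitochondrial DNA, 0.12 ± 0.10. Exons of Gabpa overlap those of Atp5j on the opposite strand, so the Gabpa value is uncertain too. The coactivator Ppargc1b had -0.45 ± 0.16 (edgeR adjusted p = 0.0964), and its relative Ppargc1a did not pass the filter on low counts.

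Low counts left 5 of the 106 genes untested. Cox20, a chaperone of the mitochondrially encoded subunit Cox2, had 5, 8 and 3 reads in WT and 11, 7 and 5 in Aif1-/- cells, and Cox8b had 3, 15 and 10 reads in WT and 2, 3 and 7 in Aif1-/- cells. Ndufa4l2 had 1 to 7 reads in every library. Cox7b2 and Cox8c had 0. A difference in these genes was not detectable at this depth. Exons of Cox20 and Ndufa4l2 lie opposite exons of Hnrnpu and Shmt2, and whether reads were kept apart by strand is not known.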

How the data were processed

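RNA-seq libraries of immortalized BMMs were grouped by genotype from the labels, 3 WT and 3 Aif1-/-. The authors made the deposited raw counts: according to the study's methods and the submitters' processing notes, ribosomal RNA was depleted, Trim Galore 0.5 trimmed the single-end reads, TopHat2 2.0.13 placed each at 1 location of GRCm38, and HTSeq 0.6.1p1 assigned them to the genes of Ensembl release 84. A read kept at 1 location can be lost to or gained from near-identical copies (at least 75 bases at 98% identity), which 23 of the 106 genes have, and 36 have exons opposite another gene's exons. The kit keeps strand and HTSeq ran with its default setting, which counts by strand, but whether the orientation of the reads matched that setting is not given in the sources used here. Rows that name no gene (reads outside genes 25.5% to 40.4%, ambiguous reads 4.55% to 7.15%) stayed out of library sizes and tests.

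Genotype was tested over 17406 genes with edgeR 4.0.16 (R 4.3.3, quasi-likelihood test, TMM, filterByExpr, no covariate), with Benjamini-Hochberg adjustment over all of them and a threshold of 0.05. Each SE came from the log2 fold change and the F value of its test. The method was tested on simulated data. Counts were normalized to the mean TMM-scaled library. TPM used merged exon lengths of the GENCODE annotation of GRCm38, and promoters came from RefSeq (GRCm38.p6). Named genes are those past the threshold with a log2 change of at least 0.5, up to 3 subunits and 2 assembly factors per complex with the smallest adjusted p, 8 reference subunits, isoform pairs and untested genes. Ndufb11 and the genes on opposite strands were chosen after their values were seen. So were genes named only for their level (Ndufa2, Ndufb9, Ndufb2, Ndufb4, Uqcr10, Atp5l, Cox14, Cox7c), their promoter (Cox10) or the settings that leave out a library. The genes and lists were chosen with earlier results of these data known. Alternatives were DESeq2 1.42.0, other size factors and filters, a replicate block, a covariate for reads outside genes, a minimum log2 fold change of 0.5, gene subsets and leaving out each library. Total gene counts of 17707986 to 29314253 per library set the precision. No protein sequences were used here.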

Additional observations from a re-analysis of the deposited data

How the results depend on the processing

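The median log2 fold change of the genes moved by less than the 0.10 SD between libraries in every alternative, from -0.03 (without WT 2, the only alternative in which its sign turned) to 0.11 (without WT 3), beside 0.03 in the main test. The log2 ratio of the summed levels was 0.04 as a share of gene counts and 0.03 as a share of nuclear coding counts. The counts of calls, 3 higher and 2 lower, depended more on the processing. The number higher was 22 with the outside-gene share as a covariate (15.4% of all genes tested), 0 with a minimum log2 fold change of 0.5 and 0 among assembly factors. It was 0 to 18 when 1 library was left out (18 without WT 3, where 13.6% of all genes tested were higher, 1 without Aif1-/- 2, 0 without Aif1-/- 1 or 3). The number lower was 6 with that covariate (16.3% of all genes tested), 1 with DESeq2 (8.77%), 1 with no filter on low counts and 0 with that minimum. It was 0 among genes with no gene on the other strand (10.9% of all such genes tested), where Sdhaf2 and Cox15 are left out. It was 1 among genes with no near-identical copy (Sdhaf2 is then left out) and 0 among structural subunits. When 1 library was left out it was 1 to 8 (8 without WT 2, where 12.3% of all genes tested were lower). For the other refits no share over all genes was counted, so their counts cannot be read as particular to these genes. Apart from the alternatives' own construction, the cause was not tested. Of 573 log2 values of named genes and summaries under alternatives, 18 had the opposite sign to the main test, 8 of them without WT 2 (Atp5a1, Atp5b and Atp5g3 among them), and no gene among the 18 passed in the main test or in that alternative. Sdhaf2 passed in 13 of 14 alternatives, Ndufa1 in 12 of 15, Cox7b in 10 of 15, Cox7a2 in 9 of 15 and Cox15 in 6 of 14.

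WT and Aif1-/- libraries share replicate numbers, but the numbers did not pair them: the correlations of deviations from the group means were 0.06, -0.08 and -0.09 for numbers 1, 2 and 3. With a replicate block 3 genes were higher and 1 lower, and 2872 of all genes tested passed in place of 3231. Cox15 and Cox7a2 then had edgeR adjusted p = 0.0547 and 0.0646, and Atp5j passed.

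With 3 libraries per genotype, 1 library decides most calls near the threshold. Depth limits the 5 untested genes and the low complex IV isoforms, whose intervals are the widest.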
